A study of Mus musculus with 3 samples.

Results

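The synapsins and the synaptic vesicle membrane proteins of the SV2, synaptophysin and synaptogyrin families were followed in RNA bound to tagged ribosomes from the deep nuclei of the mouse cerebellum. The 10 genes were chosen by name, as Syn1, Syn2 and Syn3, Sv2a, Sv2b and Sv2c, Syp and Synpr, and Syngr1 and Syngr3, and all 10 are among the 32531 genes listed in each library. The data come from translating ribosome affinity purification (TRAP), in which ribosomes that carry an EGFP-tagged L10a protein (EGFP/Rpl10a) are captured with an antibody to EGFP on magnetic beads, and the RNA they hold is sequenced. All 3 libraries are immunopurified (IP) samples of adult transgenic Htr6-EGFP/Rpl10a mice (line NIDA113, strain C57BL/6J), numbered as replicates 1 to 3, and form a single group. Values therefore compare genes within a library, with the spread between libraries as the error. The line is named for the serotonin receptor gene Htr6, and the labels do not say which cells carry the tag, whether tissue of several animals was pooled, or whether each library is a separate animal. No RNA taken before the purification was analysed here, so whether a gene was enriched by the pull-down is not measured.

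Neurotransmitter is stored in synaptic vesicles, whose membrane carries a small set of abundant proteins besides the transporters that fill them. Synapsins are phosphoproteins on the outer face of the vesicle that tether vesicles into clusters near the release site and loosen when kinases phosphorylate them. SV2 proteins are glycoproteins of the vesicle membrane that resemble sugar transporters and serve as receptors of botulinum neurotoxin A, and SV2A is the binding site of the antiseizure drug levetiracetam. Synaptophysin, synaptoporin (the product of Synpr) and the synaptogyrins are related tetraspan proteins, and synaptophysin binds the fusion protein synaptobrevin. Nearly all neurons use such proteins, and in the deep nuclei they serve both the projection neurons that carry the output of the cerebellum and the local inhibitory neurons. In bulk RNA, fewer cells of a type and less RNA per cell cannot be told apart.

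The sequences just upstream of the start of 4 of the genes are shown because they belong to pairs in which the gene with the highest level of its family stands beside a far lower paralog, Syn1 beside Syn2 and Syp beside Synpr. They are from RefSeq (build GRCm38.p6), cut so that they end before the earliest annotated start in RefSeq or GENCODE, and are given 5′ to 3′ on the strand of the gene. Capitals mark matches, on either strand, to the cAMP response element TGACGTCA, to TTCAGCACC, the left part of the RE1 element that binds the repressor REST, and to the GC box GGGCGG. The windows are chrX:20921005-20921168 on the minus strand, chr6:115134652-115134901 on the plus strand, chrX:7638330-7638470 on the plus strand and chr14:13284530-13284779 on the plus strand.
Syn1: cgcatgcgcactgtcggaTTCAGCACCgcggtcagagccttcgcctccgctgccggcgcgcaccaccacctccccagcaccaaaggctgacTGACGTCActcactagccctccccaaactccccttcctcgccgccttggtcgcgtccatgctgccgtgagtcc
Syn2: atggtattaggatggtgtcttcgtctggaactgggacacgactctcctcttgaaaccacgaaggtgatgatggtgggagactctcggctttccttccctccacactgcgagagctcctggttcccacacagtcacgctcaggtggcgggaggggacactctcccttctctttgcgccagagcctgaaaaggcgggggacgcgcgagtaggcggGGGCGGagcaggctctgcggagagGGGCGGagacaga
Syp: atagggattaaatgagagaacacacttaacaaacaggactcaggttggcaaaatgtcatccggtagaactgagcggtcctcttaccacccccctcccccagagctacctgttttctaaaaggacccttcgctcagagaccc
Synpr: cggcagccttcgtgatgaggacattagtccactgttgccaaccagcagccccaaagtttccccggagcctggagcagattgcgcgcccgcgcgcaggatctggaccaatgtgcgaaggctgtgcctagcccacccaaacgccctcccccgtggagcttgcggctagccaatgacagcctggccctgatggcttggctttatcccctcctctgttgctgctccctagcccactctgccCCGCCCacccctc

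The Syn1 window of 164 bases held 1 match to the cAMP response element and 1 to the RE1 part, and no GC box. Among all 32851 RefSeq promoter windows cut to the same length from their upstream end, 0.444% held the first and 0.207% the second. Such a cut leaves out the bases nearest the RefSeq start. Among windows of 250 bases, the shares were 1.55% and 0.301%. Neither of these motifs was found in the Syn2, Syp or Synpr windows. The Syn2 window held 2 GC boxes and the Synpr window 1, and 32.7% of windows of their length, 250 bases, held at least 1. A match describes these letters only, and binding was not measured.

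The libraries held 7622010 to 8842058 counts assigned to genes. Htr6 itself had 0, 7 and 0 counts in replicates 1, 2 and 3. Pan-neuronal markers summed to 16650 to 24620 CPM (the count divided by the TMM-scaled library size and put on the usual CPM scale) and had all 8 genes at a mean of 10 CPM or more. Markers of glutamatergic neurons of the deep nuclei summed to 479 to 740 CPM with 5 of 8 genes at that level, and inhibitory markers to 406 to 945 CPM with 5 of 5. Granule cell markers of the cerebellar cortex summed to 3806 to 4464 CPM (10 of 10 genes). Purkinje cell markers, also of the cortex, summed to 5705 to 7625 CPM (6 of 8 genes). The lists hold unlike genes, so their sums do not rank the cell types by amount of RNA. Car8 (Purkinje cell list) and Cbln3 (granule cell list) alone had means of 1154 and 1077 CPM, and Slc17a6 (deep nuclei list) 302 CPM. Oligodendrocyte markers summed to 2890 to 3662 CPM (6 of 6 genes), astrocyte markers to 2429 to 2790 CPM (5 of 6 genes), vascular markers to 45.0 to 93.3 CPM (2 of 5 genes, Cldn5 at 0) and microglial markers to 15.3 to 32.7 CPM (1 of 6 genes, with C1qa, Aif1 and Trem2 at 0). The part that RNA of these other cells has in the levels below was not tested.

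Most of the vesicle genes were well represented. All 10 had at least 10 counts in 2 or more libraries, and their median of mean levels was 193 CPM, against 24.7 CPM over the 11168 genes that met this minimum. A mean of at least 100 CPM was reached by 8 of the 10, where 18.5% of those genes reached it. At least 10 CPM in every library was reached by 9 of the 10, against a background of 50.4%, and Synpr was the exception. On a scale per length, RPKM (CPM per kilobase of merged exon), the median of the 10 was 28.8 against 5.46 over all such genes with a known length. Together the 10 genes took 0.379%, 0.482% and 0.441% of all gene counts in replicates 1, 2 and 3.

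The length-scaled order of the genes was Syn1, Syp, Sv2b, Sv2a, Syngr1, Syn2, Syn3, Sv2c, Syngr3 and Synpr, from high to low. The steps from Syn1 to Syp, from Syp to Sv2b and from Sv2b to Sv2a each exceeded their SD and had 1 sign in 3 of 3 libraries. So did the last step, in which Synpr lay 1.98 ± 1.53 log2 units below Syngr3 (SD, n = 3). The neighbours between Sv2a and Syngr3 did not differ beyond their spread, and each such step changed sign in at least 1 library. Merged exons can include retained introns and rare ends, so levels were also scaled by the longest coding transcript. The first 3 places of the order were the same on that scale, Syn3 came next, and Syngr3 and Synpr differed by less than their spread (0.56 ± 1.53 log2 units).

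**Figure D1:**
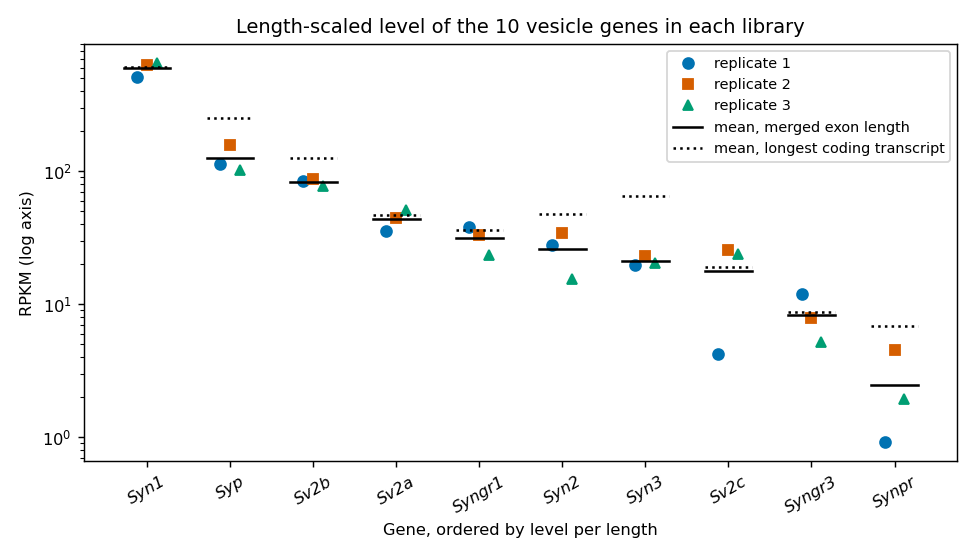
Level of each gene per length in each library, in RPKM on a log axis. Symbols are the 3 replicates, solid lines their mean with merged exon length, and dotted lines the mean with the length of the longest coding transcript. Syn1 lies near 600 RPKM, Syp and Sv2b follow, and Sv2c and Synpr spread most between libraries.

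Syn1 dominated the synapsins and was the most abundant of the 10 genes. Syn1 encodes synapsin I, the classical phosphoprotein of the vesicle reserve pool (ENSMUSG00000037217.15, minus strand of chromosome X, mm10 positions 20860511 to 20921004). It had 12838, 18358 and 16798 counts in replicates 1, 2 and 3. Replicate 1 was the lowest and the other libraries were close to each other. The mean was 1980 ± 245 CPM (SD, n = 3) or 600.1 ± 74.3 RPKM, which ranked 13 of the 10341 genes with a length that met the minimum, and 22 with the coding transcript length. Within the family, Syn1 made up 92.7% ± 1.8 of the summed level per merged exon length, and 84.3% ± 3.1 with coding transcript lengths.

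Syn2 encodes synapsin II (ENSMUSG00000009394.13, on the plus strand of chromosome 6 at 115134902 to 115282006). Libraries held 1492, 2132 and 848 Syn2 counts, or 198, 242 and 109 CPM, with the lowest value in replicate 3. Its mean was 183 ± 67.8 CPM and 26.0 ± 9.6 RPKM. Syn3 encodes synapsin III, known from developing neurons and adult neurogenesis (ENSMUSG00000059602.14, minus strand of chromosome 10, positions 86055125 to 86498896). It had 1821, 2501 and 1963 counts, or 259 ± 22.2 CPM, and was among the most even of the 10 genes, with a highest library 1.18 times the lowest. Its level was 21.1 ± 1.8 RPKM over 12282 bases of merged exon but 64.6 ± 5.6 RPKM over the 4006 bases of its longest coding transcript. Of the merged exon bases of Syn3, 14.1% also lie in exons of Timp3 on the other strand, and reads there cannot be assigned without knowing the strand setting.

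The difference of Syn1 minus Syn2 was 4.20, 4.20 and 5.40 log2 units of length-scaled count in replicates 1, 2 and 3 (mean 4.60 ± 0.69, 24.2-fold), and the mean was 3.75 ± 0.69 (13.4-fold) with coding transcript lengths. Replicate 3, where Syn2 was low, held the largest difference. Syn1 minus Syn3 was 4.83 ± 0.15 log2 units (28.4-fold), and 3.23 ± 0.15 (9.36-fold) with coding transcript lengths. Both differences had 1 sign in 3 of 3 libraries (exact two-sided sign-flip permutation test, p = 0.25, adjusted p = 0.286 over the 8 pairs of paralogs). This p is the smallest that 3 libraries allow, so sizes are read against the SD here and below. Syn2 minus Syn3 was 0.23 ± 0.55 log2 units, within its SD, and positive in replicates 1 and 2 (p = 0.5, adjusted p = 0.5, by the same exact permutation test). With coding transcript lengths it was -0.52 ± 0.55, with Syn2 lower in 3 of 3 libraries, so the order of these 2 genes depends on the length taken.

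Sv2b was the leading SV2 gene and the steadiest of the 10. SV2B is known from glutamatergic neurons, whereas SV2A is found in most neurons (Sv2b: ENSMUSG00000053025.13, minus strand of chromosome 7, positions 75114894 to 75309262). Sv2b had 5304, 6419 and 5072 counts, or 702, 728 and 651 CPM. The libraries lay close together, with a coefficient of variation of 5.69%, and the mean was 694 ± 39.5 CPM and 82.8 ± 4.7 RPKM. For Sv2a (ENSMUSG00000038486.9, on the plus strand of chromosome 3 at 96181151 to 96195521) the counts were 1252, 1813 and 1861. Its mean was 203 ± 36.6 CPM and 43.9 ± 7.9 RPKM, with replicate 1 the lowest.

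Sv2c, known from the basal ganglia and from brainstem neurons, set replicate 1 apart (ENSMUSG00000051111.16, minus strand of chromosome 13, positions 95954594 to 96132577). It had 310, 2200 and 1788 counts, or 41.0, 250 and 229 CPM, in replicates 1, 2 and 3. Replicate 1 lay far below the other libraries, which were close to each other. The mean was 173 ± 115 CPM and 17.9 ± 11.9 RPKM, and 239.6 CPM without replicate 1. Purkinje cell markers had their lowest sum in replicate 1 (5705 CPM, against 7625 and 7040 in replicates 2 and 3). So did the granule cell (3806, against 4437 and 4464), astrocyte (2429, against 2457 and 2790) and vascular markers (45.0, against 93.3 and 65.8). The glutamatergic deep nuclei markers (740, against 522 and 479) and the pan-neuronal markers (24620, against 22513 and 16650) had their highest sums there. The Purkinje and vascular sums had the order of Sv2c over the libraries, but 3 libraries allow few orders. The part of these markers in the Sv2c level was not tested.

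Sv2a minus Sv2b was -1.23, -0.97 and -0.59 log2 units of length-scaled count in replicates 1, 2 and 3, so that Sv2b was higher in all 3 libraries (mean -0.93 ± 0.32, 1.91-fold). With coding transcript lengths this difference was -1.43 ± 0.32. Sv2b minus Sv2c was 4.31, 1.76 and 1.72 log2 units (mean 2.59 ± 1.48), and its mean was 1.74 without replicate 1. Sv2a minus Sv2c was 3.08, 0.79 and 1.12 log2 units (mean 1.66 ± 1.24), and its mean was 0.95 without replicate 1. No difference among these 3 changed sign between libraries (exact sign-flip permutation test, p = 0.25, adjusted p = 0.286). As raw count ratios, Sv2a minus Sv2c was 0.60 ± 1.24, with no common sign. Sv2b made up 57.9% ± 8.7 of the summed SV2 level per merged exon length, Sv2a 30.3% ± 3.0 and Sv2c 11.8% ± 7.2.

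Among the tetraspan proteins, Syp was high and its paralog Synpr was the lowest gene of all 10 per merged exon length. With coding transcript lengths Synpr and Syngr3 differed by less than their spread, and by CPM Syngr3 was lower (17.3 against 23.2 CPM). Syp encodes synaptophysin, a standard marker of presynaptic terminals (ENSMUSG00000031144.15, plus strand of chromosome X, positions 7638471 to 7653256). It had 4502, 7271 and 4174 counts, or 596, 825 and 536 CPM, with replicate 2 the highest. The mean was 652 ± 153 CPM and 125 ± 29.3 RPKM, or 252 ± 59.0 RPKM over its longest coding transcript. Of the stretches of 50 bases in that transcript, 32.6% also occur in the antisense gene Gm14703, so the Syp count depends on how overlapping genes were counted.

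Synpr encodes synaptoporin, known from mossy fibre terminals of the hippocampus (ENSMUSG00000056296.17, plus strand of chromosome 14, positions 13284780 to 13616340). It had 65, 377 and 142 counts, or 8.61, 42.8 and 18.2 CPM, in replicates 1, 2 and 3. The highest library was 4.97 times the lowest, and the mean was 23.2 ± 17.6 CPM and 2.46 ± 1.87 RPKM, or 13.4 CPM without replicate 2. In replicate 2 the inhibitory markers had their lowest sum (406 CPM, against 725 and 945 in replicates 1 and 3). The Purkinje cell markers (7625 CPM, against 5705 and 7040), the oligodendrocyte markers (3662, against 3133 and 2890), the vascular markers (93.3, against 45.0 and 65.8) and the microglial markers (32.7, against 30.6 and 15.3) had their highest sums there. The Purkinje and vascular sums had the order of Synpr over the libraries. Sv2c has the same order, so this match is not a separate one, and 3 libraries allow few orders. The part of these markers in the Synpr level was not tested.

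Per merged exon length, Syngr1 lay above the median of the 10 genes (28.8 RPKM) and Syngr3 below it. Syngr3 was above the median of all genes tested per length (5.46 RPKM) but below it by CPM (24.7 CPM). Syngr1 (ENSMUSG00000022415.12, on the plus strand of chromosome 15 at 80091334 to 80119501), a neuronal synaptogyrin gene, had 1376, 1416 and 879 counts, or 152 ± 35.5 CPM and 31.6 ± 7.4 RPKM. Syngr3 (ENSMUSG00000007021.5, minus strand of chromosome 17, positions 24685092 to 24689955), a synaptogyrin known to interact with the dopamine transporter, had 187, 143 and 84 counts, or 17.3 ± 7.0 CPM and 8.33 ± 3.40 RPKM. Both had their lowest value in replicate 3, as did Sv2b, Syn2 and Syp. Syn3, Sv2c and Synpr were lowest in replicate 1, as were Syn1 and Sv2a, which were highest in replicate 3. In replicate 3 the pan-neuronal markers had their lowest sum (16650 CPM, against 24620 and 22513 in replicates 1 and 2). So did the glutamatergic deep nuclei (479 CPM), oligodendrocyte (2890 CPM) and microglial markers (15.3 CPM). In contrast, the granule cell (4464 CPM), inhibitory (945 CPM) and astrocyte markers (2790 CPM) had their highest sums in replicate 3. The part of these markers in these levels was not tested.

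Syp minus Synpr was the largest paralog difference, at 6.96, 5.13 and 5.73 log2 units of length-scaled count (mean 5.94 ± 0.94, 61.3-fold). It was 5.46 ± 0.94 with coding transcript lengths. Syngr1 minus Syngr3 was 1.66, 2.09 and 2.17 log2 units (mean 1.97 ± 0.27, 3.92-fold). Both had 1 sign in 3 of 3 libraries (exact sign-flip permutation test, p = 0.25, adjusted p = 0.286). Syp made up 74.6% ± 4.7 of the summed level of its 4 related genes per merged exon length, Syngr1 19.0% ± 3.5, Syngr3 4.99% ± 1.95 and Synpr 1.41% ± 0.83. With coding transcript lengths the mean shares were 82.8% for Syp, 12.1% for Syngr1, 2.93% for Syngr3 and 2.16% for Synpr.

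**Figure D2:**
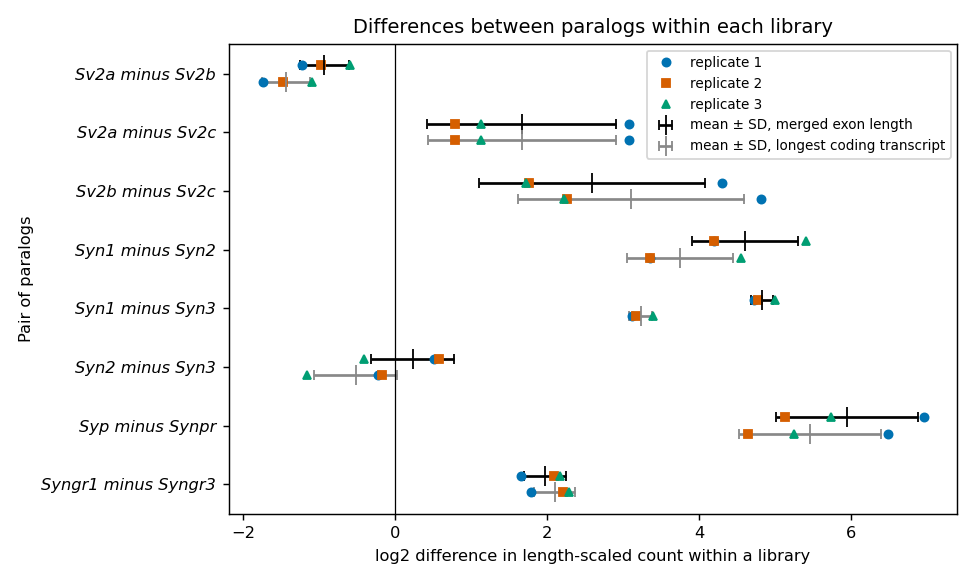
Difference between paralogs within each library, as log2 of the length-scaled count of the first gene minus that of the second. Symbols are the 3 replicates, and bars the mean ± SD with merged exon length (black) and with the longest coding transcript (grey). Syn2 minus Syn3 is the pair whose sign depends on the length, and replicate 1 stands apart for both pairs with Sv2c.

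The coding sequences of the paralogs were compared because reads from near-identical copies could be counted for either gene. In global alignments of the longest coding sequence of each gene, identity over aligned bases ran from 66.5% for Syngr1 and Syngr3 to 74.4% for Syn1 and Syn2. No stretch of 50 bases in a longest coding transcript was shared with another gene for 6 of the 10 genes, and the share was at most 1.1% for Sv2c, Syn2 and Syn3.

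Summed by family, synapsins exceeded SV2 genes by a steady margin. Syn1 alone made up 92.7% of the synapsin sum per merged exon length, so the family difference is mostly that of Syn1. The summed levels per merged exon length were 647 ± 72.9 RPKM for the synapsins, 168 ± 35.5 RPKM for the synaptophysin and synaptogyrin genes and 145 ± 18.1 RPKM for the SV2 genes. SV2 minus synapsin was -2.18, -2.13 and -2.17 log2 units in replicates 1, 2 and 3 (mean -2.16 ± 0.03, SV2 lower by 4.48-fold). Sv2c differed 6.08-fold in CPM between these libraries but made up only 3.42%, 16.4% and 15.5% of the SV2 sum. Both family sums were lowest in replicate 1 (124 RPKM for SV2, 563 RPKM for the synapsins). The mean of SV2 minus synapsin was -1.91 ± 0.02 with coding transcript lengths and -1.18 ± 0.05 (2.27-fold) as raw count ratios. Synapsin minus synaptophysin and synaptogyrin was 1.97 ± 0.35 log2 units (3.90-fold), and 1.26 ± 0.32 (2.40-fold) with coding transcript lengths. Both differences had 1 sign in 3 of 3 libraries (exact sign-flip permutation test, p = 0.25, adjusted p = 0.375 over 3 pairs). SV2 minus synaptophysin and synaptogyrin was -0.20 ± 0.34, within its SD and negative in 2 of 3 libraries (exact sign-flip permutation test, p = 0.5, adjusted p = 0.5), and -0.65 ± 0.30 with coding transcript lengths.

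The spread of the 10 genes between libraries exceeded counting error, as it did for nearly all genes. By a Poisson chi-square test of the counts with Benjamini-Hochberg adjustment, all 10 were called (the highest adjusted p was 1.68e-07, for Syn3), against a background of 96.5% of the 11168 genes. Without replicate 2, the Syn3 call was lost (Poisson chi-square, adjusted p = 0.201). Measured against genes of like level with edgeR's quasi-likelihood dispersion, 0 of the 10 were called at an adjusted p under 0.05, against a background of 0% of genes, and 477 genes had an unadjusted p under 0.05. Sv2c was the member with the smallest p, 0.0133 before and 0.956 after adjustment (edgeR), while the other 9 had unadjusted values of 0.26 or more. On simulated data this test recovered only a minority of the changes put in, so genes that are not called may still vary.

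The highest library was at least 2 times the lowest for 4 of the 10 genes, Sv2c, Syn2, Synpr and Syngr3, against a background of 71% of genes. Among genes with a mean of at least 100 CPM this held for 2 of 8, Sv2c and Syn2, against 28.5%. The coefficient of variation ran from 5.69% for Sv2b and 8.59% for Syn3 to 66.4% for Sv2c and 76.0% for Synpr, while the median over the 2067 genes of at least 100 CPM was 25.4%. For the 6026 genes of 10 to 100 CPM, the class of Synpr, the median was 56.7%. Relative to each gene's mean on the log2 CPM scale, replicate 1 deviated by -1.70 for Sv2c and -1.13 for Synpr. Replicate 3 was the lowest library for Sv2b, Syn2, Syp, Syngr1 and Syngr3, and the highest for Sv2a and Syn1.

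**Figure D3:**
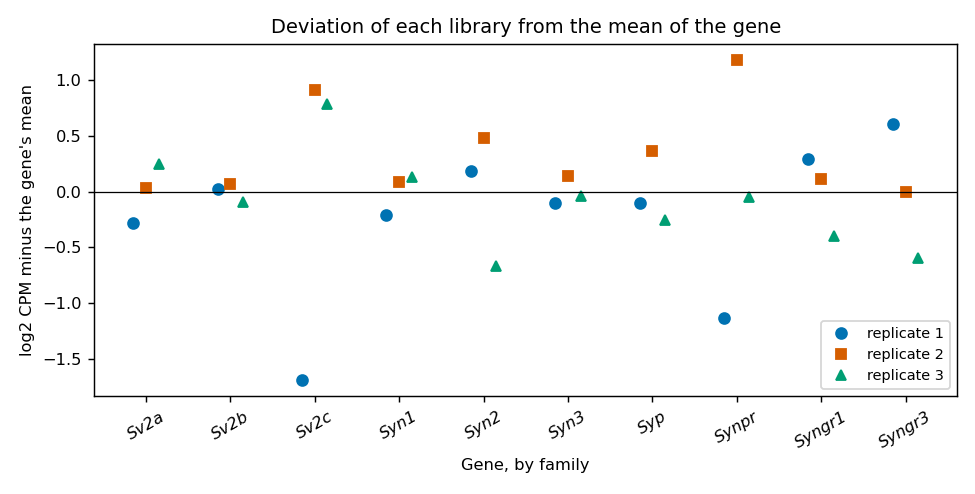
Deviation of each library from the gene's mean, in log2 CPM, for the 10 genes by family. Symbols are the 3 replicates. Sv2c and Synpr deviate most, both with replicate 1 lowest and replicate 2 highest, and Sv2b and Syn3 least.

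**Figure D4:**
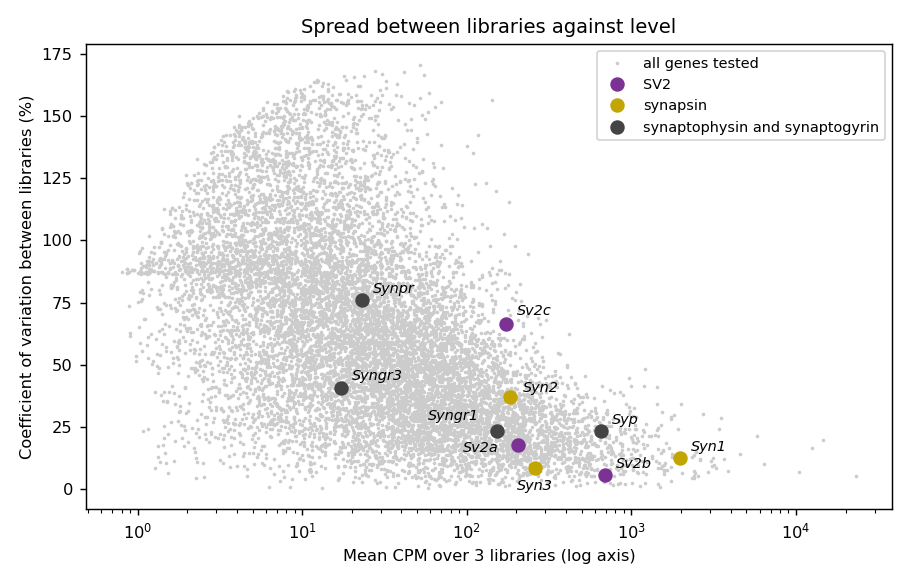
Coefficient of variation between the 3 libraries against mean CPM on a log axis. Grey points are the 11168 genes tested, and coloured points the 10 vesicle genes by family. Sv2c, at 66.4%, lies above the median of 25.4% for genes of at least 100 CPM, while Sv2b and Syn1, at 5.69% and 12.4%, lie among the steady abundant genes.

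Other genes of the vesicle membrane gave a wider range. Of 21 such genes, 11 had a mean of at least 100 CPM (8 of the 10 genes above, 18.5% of all genes that met the minimum). At least 10 CPM in every library was reached by 14, against a background of 50.4%. The median of their means was 113 CPM, against 24.7 CPM over all genes that met the minimum. Vamp2, which encodes the fusion protein synaptobrevin-2, had 8004, 9829 and 6794 counts, or 1016 ± 128 CPM and 267 ± 33.5 RPKM. Per length it stood between Syn1 and Syp. Vamp1, its paralog prominent in brainstem and spinal cord, had 6950, 6070 and 3393 counts (682 ± 242 CPM), and Rab3c, a vesicle GTPase, had 3343, 2883 and 4539 (451 ± 128 CPM). Vamp2 and Vamp1 were lowest in replicate 3 and Rab3c was highest there. The vesicular glutamate transporter gene Slc17a6, at 302 ± 80.2 CPM, and Slc17a7 and Slc32a1 at 54.7 ± 18.5 and 23.7 ± 19.6 CPM, are also in the marker lists above (deep nuclei, granule cell and inhibitory).

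Most relatives of the tetraspan genes that are known mainly outside neurons were low. Syngr2, the non-neuronal synaptogyrin, had 0, 42 and 0 counts, Syngr4 had 0 in every library, and Sypl2, the muscle relative of synaptophysin, had 11, 0 and 0. A count of 0 allows up to 0.397, 0.341 and 0.385 CPM in replicates 1, 2 and 3, taking 3 counts as the limit for counting error only. Sypl, the broadly expressed pantophysin gene, was the exception with 292, 191 and 1045 counts (64.8 ± 60.6 CPM), with replicate 3 far above the others. The SV2-related genes Svop (217, 85 and 62 counts, 15.4 ± 11.5 CPM) and Svopl (45, 0 and 0 counts) were highest in replicate 1, the library in which Sv2c was lowest.

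**Figure D5:**
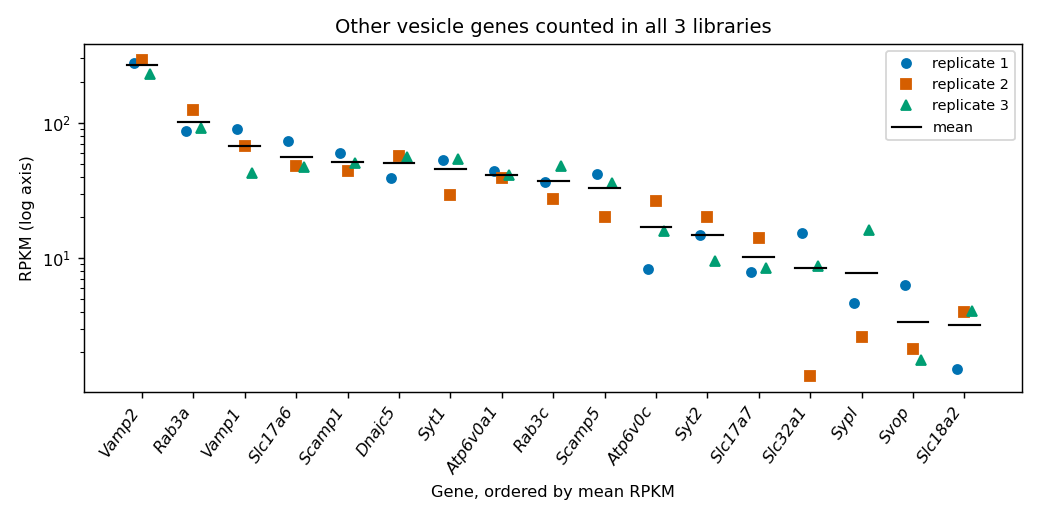
Level per length, in RPKM on a log axis, of the 17 other vesicle genes with counts in all 3 libraries. Symbols are the 3 replicates and lines their mean. Vamp2 is the highest, at 267 RPKM, and Slc32a1 and Sypl spread most between libraries.

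The genes most like the leading member of each family were found by the root mean square difference in log2(CPM + 1) over the 3 libraries, among all genes listed. For Syn1 these were Myo5a (difference 0.087, 2024 ± 130 CPM) and Gnas (0.088, 2097 ± 241 CPM). For Sv2b they were Btbd3 (0.055, 684 ± 21.2 CPM) and Rab11b (0.088, 682 ± 68.4 CPM). For Syp the nearest was Nsd1 (0.092, 670 ± 194 CPM). With 3 libraries this measure reflects mostly a like level.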

How the data were processed

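Each library has 1 table of raw counts per gene symbol, deposited by the authors. STAR 2.0.0e, HTSeq and the build mm10 are named in the submitters' processing notes. Which annotation and strand setting were used is not given in the sources used here. HTSeq summary rows and a row named unknown, which held 0 counts, were left out; reads without a feature made up 44.1% to 50.2% of the reads placed in a single gene, several genes or none, and reads of several genes 1.77% to 1.94%. Library sizes were scaled by TMM (edgeR 4.0.16, R 4.3.3). Lengths are GENCODE M21 exon lengths on that build, joined on symbols (23155 symbols and all 10 genes found). Paralog differences are log2((count + 0.5)/length) within a library, with 0.5 counts as pseudocount, tested by exact sign-flip permutation (scipy 1.17.1). Family differences use sums without a pseudocount. Spread was tested over the 11168 genes that reached 10 counts in 2 or more libraries, by Poisson chi-square and by edgeR's quasi-likelihood dispersion over its trended prior, both Benjamini-Hochberg adjusted. Both tests were first checked on simulated data, where the Poisson test recovered every change put into 1 library and the edgeR test a minority of them. No molecular identifiers are mentioned in the labels, so limits at a count of 0 cover counting error only. Alternatives were DESeq2 1.42.0 size factors, other lengths, pseudocounts and filters, robust estimation, and leaving out each library. The members and lists were chosen with earlier results of these data known. Named genes are the 10 members, the 3 highest and 3 lowest of the other vesicle genes and those at 0 in a library, and the 2 genes nearest each family's leading member, of which 1 is not reported here; further vesicle genes were named after their values were seen. RefSeq promoters matched 8 of the 10 genes; Syn3 and Syngr3 had no entry. No 2 libraries agreed within sampling noise (chi-square per degree of freedom 87.5 to 112), and p-values measure only the spread between these samples, which may be technical.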

Additional observations from a re-analysis of the deposited data

How the results depend on the processing

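Of 48 recomputed paralog differences, 46 kept their sign. The exceptions were both of Syn2 minus Syn3 (0.23 log2 units as reported), which was -0.58 with no length scaling and -0.52 with the longest coding transcript length. Of 15 recomputed family differences 14 kept their sign, and SV2 minus synaptophysin and synaptogyrin was 0.36 with no length scaling (-0.20 as reported). In these 3 cases only the length differed. As raw count ratios, Sv2a minus Sv2b was -1.78, Syn1 minus Syn2 3.51, Syn1 minus Syn3 2.93, Syp minus Synpr 5.08 and Syngr1 minus Syngr3 3.19. In proportion to the reported mean, levels moved most for Synpr, to 13.4 CPM without replicate 2 (23.2 as reported). The number of genes beyond counting error, 10773 of 11168 as reported, was 7877 to 14257 under every alternative tried. The number of genes tested differed as well. The lowest was 7877 of 9582 without replicate 3, and the highest 14257 of 16071 with all genes that had any count. The number of genes more variable than others of their level, 0 as reported, was 20 when all genes with any count were tested and 2 to 5 without 1 replicate, and the cause was not tested. None of the 10 vesicle genes was among them. The number was 0 with DESeq2 size factors and with robust estimation. No paired analysis was possible because the labels give 1 group. With 3 libraries no sign-flip test can pass a threshold of 0.05. Length-scaled values depend on gene models that may differ from those used for the counts.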

Other observations

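Each synapsin gene hosts a gene of a tissue inhibitor of metalloproteinases on the opposite strand, a known arrangement, and these nested genes were counted at levels of their own. Timp1, inside Syn1, had 0, 3 and 13 counts in replicates 1, 2 and 3, and shares 0 exon bases with it. Timp3, inside Syn3, had 719, 667 and 567 counts (81.2 ± 12.2 CPM; SD, n = 3) and shares 1733 exon bases with it. Timp4, inside Syn2, had 44, 598 and 119 counts (29.7 ± 33.4 CPM) and shares 90. Replicate 2 was the highest library for both Syn2 and Timp4. By CPM replicate 3 was the lowest for Syn2, and replicate 1 for Timp4. Timp3 was even between libraries, as was Syn3.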
